A study of Mus musculus with 4 samples.

Results

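ATAC-seq, which marks accessible DNA by where a transposase can cut it, was applied to MPP3 cells sorted from bone marrow of WT-iMOS mice 3 months of age. MPP3 cells are multipotent haematopoietic progenitors that give rise mainly to myeloid cells. The libraries carried the genotype labels WTiMOS_T2 (2 libraries) and WTiMOS_T1 (2 libraries), and what iMOS, T2 and T1 stand for is not given in the sources used here. No treatment is labelled, the strain, age and cell type were shared by both groups, and the series asks how the zinc-finger transcription factor Bcl11a acts within MPP3 cells. Nothing says that the libraries of a group came from separate animals, so the spread between them may be technical. The regions described here are the strong T2-only regions away from gene ends. Overlapping peaks of the 4 deposited lists (1 bp or more) were joined into 77914 regions on mouse genome build mm10. A region was kept where both T2 lists had a peak with a −log10 q of at least 10, neither T1 list had any peak, and the midpoint lay more than 1 kb from both ends of every protein-coding gene. This left 1851 regions, 2.38% of all regions. The T2 and T1 peaks themselves chose these regions, so their presence in T2 and absence from T1 is a description and carries no test.

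Sites of open chromatin away from gene ends are mostly enhancers, silencers and insulators, which transcription factors bind to control genes that may lie far along the chromosome. They differ between cell types more than promoters do, and in blood progenitors they are held open by factors of the RUNX, ETS, GATA and C/EBP families. A peak list from a population of cells does not tell a site open in more of the cells from a site opened more widely in each cell.

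The lists held 66776 and 62718 peaks in T2 replicates 1 and 2 and 58469 and 54057 peaks in T1 replicates 1 and 2. They carry no read counts, so sequencing depth is unknown, and the longer T2 lists move with any excess of T2-only regions. Of 9 genes of progenitors checked, 7 had a peak at a gene end in all 4 libraries, Kit and Flt3 among them. Mpo, which encodes myeloperoxidase, had such a peak at −log10 q of 24.5 and 19.3 in T2 and none in T1, while away from its ends it had 0 strong T2-only regions and 1 T1-only region under the mirrored rule. Ly6a had no peak at a gene end in any library. Of 9 genes of other cell types, 6 also had a peak in all 4 libraries, so peaks at gene ends did not separate these cell types.

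A small number of the regions lay on or close to start sites inside or beside genes. Sequence around these starts is known from RefSeq's promoter table, whose assembly, GRCm38.p6, is the one behind mm10. Of 1772 regions on the chromosomes that table covers, 33 (1.86%, 95% Wilson interval 1.33 to 2.60) touched a window from 250 bases before to 50 bases after a start. These belonged to 13 protein-coding and 20 lncRNA genes. The 5 sequences below are shown because they are the DNA under strong T2-only peaks. Each had a −log10 q of at least 20 in both T2 libraries, a midpoint within 150 bp of the start, and both T2 summits between 250 bases before and 50 bases after it. The stretch shown is the part of the region that lies upstream of the start, 5′ to 3′ on the strand of the gene. Capitals mark matches on either strand to the 17 motif patterns searched, and these examples were chosen after their values were seen.
Gmfg (mm10, chr7:28440815-28440936, plus strand, 122 bases): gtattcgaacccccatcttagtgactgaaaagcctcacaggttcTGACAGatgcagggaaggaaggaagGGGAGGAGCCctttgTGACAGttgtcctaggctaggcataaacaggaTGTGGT
Lipe (mm10, chr7:25390113-25390322, minus strand, 210 bases): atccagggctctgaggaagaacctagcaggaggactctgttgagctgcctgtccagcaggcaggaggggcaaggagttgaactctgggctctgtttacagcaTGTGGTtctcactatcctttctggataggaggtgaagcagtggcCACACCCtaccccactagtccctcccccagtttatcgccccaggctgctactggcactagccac
Znfx1 (mm10, chr2:167043496-167043745, minus strand, 250 bases): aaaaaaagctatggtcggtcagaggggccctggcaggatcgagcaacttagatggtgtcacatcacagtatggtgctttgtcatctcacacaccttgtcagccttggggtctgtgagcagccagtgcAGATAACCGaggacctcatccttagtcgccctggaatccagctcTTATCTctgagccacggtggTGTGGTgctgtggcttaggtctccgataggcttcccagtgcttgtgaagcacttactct
4933406J10Rik (mm10, chr7:82755645-82755894, minus strand, 250 bases): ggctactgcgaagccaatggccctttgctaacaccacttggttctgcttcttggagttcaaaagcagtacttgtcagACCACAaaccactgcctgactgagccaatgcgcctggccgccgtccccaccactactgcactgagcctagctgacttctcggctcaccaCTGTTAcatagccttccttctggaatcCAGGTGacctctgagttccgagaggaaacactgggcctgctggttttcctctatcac
Gm41429 (mm10, chr16:18696526-18696723, plus strand, 198 bases): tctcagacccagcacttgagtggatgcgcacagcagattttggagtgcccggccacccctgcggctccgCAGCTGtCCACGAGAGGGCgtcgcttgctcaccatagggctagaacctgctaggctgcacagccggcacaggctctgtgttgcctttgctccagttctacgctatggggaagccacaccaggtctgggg

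Gmfg encodes glia maturation factor gamma, an actin regulator of leukocytes that acts on the Arp2/3 complex. The region there, chromosome 7 from 28440815 to 28441069, gave −log10 q of 37.2 and 20 in T2 replicates 1 and 2 and no peak in either T1 list. The T2 summits stood 22 bp before and 27 bp after the start, so the region sat on an inner start of the gene, with the nearest T1 peak 1.5 kb away. Lipe encodes hormone-sensitive lipase, which releases fatty acids from stored fat. At 25390024 to 25390322 on chromosome 7 the peaks reached −log10 q of 34.6 and 21.7 in T2, and both T2 summits were within 2 bp of the start. Znfx1, an RNA helicase of antiviral defence, had peaks with −log10 q of 48.9 and 25.1 in T2 (chromosome 2, 167043464 to 167043784), and the nearest T1 peak was 18.8 kb away. The lncRNA gene 4933406J10Rik starts inside Efl1, a GTPase gene of ribosome maturation. Its region had −log10 q of 39.6 and 41.7 in T2. At the lncRNA gene Gm41429 (chromosome 16, 18696526 to 18696858) the T2 values were 38.9 and 31.5. All 5 were without a peak in either T1 list.

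The letters TGTGGT, the core read by RUNX factors, occurred in the stretches of Gmfg, Lipe and Znfx1 and, on the other strand, in that of 4933406J10Rik. Over the 250 upstream bases of all 33 windows, 6 held TGTGGT (18.2%), against 14.0% of the 32851 windows in the table. This and the following shares count all 250 bases of each window, also those outside the region. At some windows the upstream bases lay wholly outside the region, so the shares describe promoter windows and not only DNA under the peaks. The Gm41429 stretch held a match to the CTCF pattern, as did 2 of the 33 windows (6.06%, against 2.07% of all). The Znfx1 stretch held the GATA letters AGATAA on each strand, and one of these shares bases with a match to the MYB pattern TAACNG. The GATA letters were found in 5 of the 33 windows (15.2%, against 9.99%) and the MYB pattern in 11 (33.3%, against 19.8%). The AP-1 pattern TGANTCA was found in 5 (15.2%, against 6.75%) and the BCL11A pattern TGACCA in 4 (12.1%, against 11.4%). The Gmfg stretch held the MEIS and TGIF letters TGACAG at 2 places (5 windows, 15.2%, against 15.9%) and an NF-kB match (10 windows, 30.3%, against 17.6%). The Lipe stretch held the KLF and SP pattern GGGNGTG (8 windows, 24.2%, against 26.1%). The E-box CAGGTG, in the 4933406J10Rik stretch, was found in 9 windows (27.3%, against 17.2%), and the E-box CAGCTG, in that of Gm41429, in 3 (9.09%, against 13%). None of the 5 stretches held the ETS letters GGAAGT (8 windows, 24.2%, against 19.7%), the C/EBP pattern TTGCNNAA (4 windows, 12.1%, against 9.56%) or the TEAD letters GGAATG (6 windows, 18.2%, against 12.6%). The IRF, STAT and homeodomain patterns were found in 0 of the 33 windows, against 2.98%, 0.913% and 4.84% of all. With 33 windows, these shares rest on few matches each, and a match is not a bound site. The windows of the whole table include starts at the ends of protein-coding genes, which the rule left out. The sets therefore differ in kind, and no pattern is called more frequent at the T2-only regions.

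Weaker regions touched the promoter windows of other protein-coding genes, not always the start itself. Capg, an actin-capping protein of macrophages, had −log10 q of 21.0 and 12.7 in T2. Slc7a7, an amino acid transporter of macrophages and epithelia, had 15.9 and 16.4. Trpv2, a calcium-permeable channel, had 16.6 and 13.5, but a T1 peak lay 0.206 kb away, so open chromatin beside this start was present in T1 too. Agpat1, an acyltransferase of phospholipid synthesis, had 20.8 and 15.1, with a T1 peak 1.15 kb away. Among regions found in all 4 libraries and away from gene ends, 7.65% (7.36 to 7.95) of 31348 touched such a window. For T1-only regions under the mirrored rule the share was 0.922% (0.423 to 2) of 651. No test was made between these classes, because regions are not replicates.

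The regions were narrow and of middling strength within their lists. In T2 replicate 1 their −log10 q ranged from 10 to 64.8 with a median of 17.7, and in T2 replicate 2 from 10 to 62.5 with a median of 15.3. The median region stood above 39.6% of all peaks in the list of T2 replicate 1 and above 37.3% in that of T2 replicate 2. They are therefore strong only against the limit of 10. Peaks of regions found in all 4 libraries and away from gene ends had medians of 33.2 and 27.9 in T2. The fold over local background, the authors' value, had a median of 8.04 in both T2 libraries, with a range of 2.61 to 19.6 in replicate 1 and 2.66 to 21.4 in replicate 2. The median peak width was 332 bp and 310 bp in T2 replicates 1 and 2, against 571 and 529 bp for the peaks in regions of all 4 libraries. T1-only regions under the mirrored rule had median −log10 q of 19.1 and 15.7 in T1 replicates 1 and 2. Their median peak widths were 388 and 348 bp, so narrow peaks were not particular to the T2-only regions. Width moves with peak strength, which the rule uses.

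**Figure D1:**
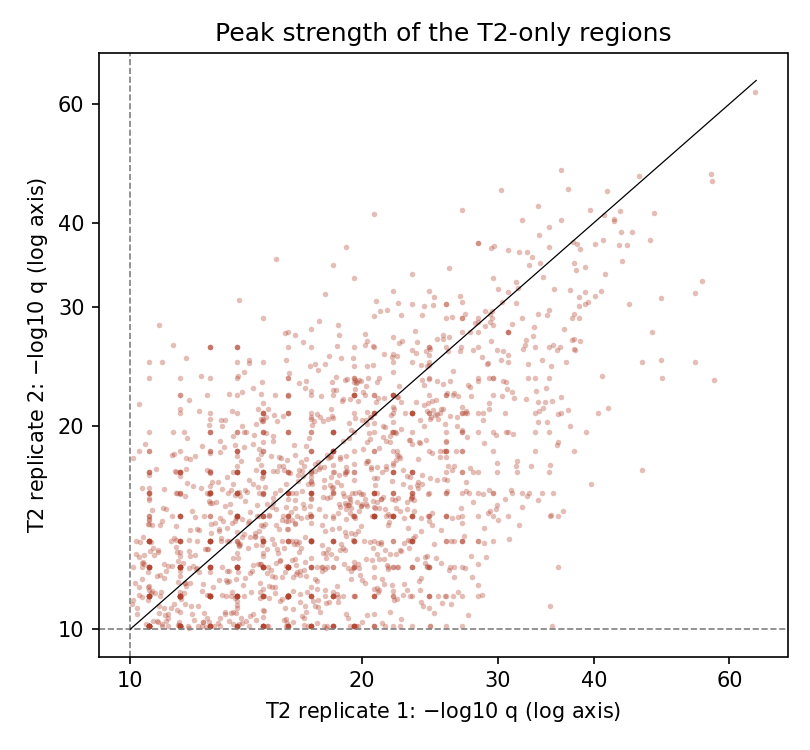
Each point is 1 of the 1851 strong T2-only regions, with the −log10 q of its peak in T2 replicate 1 (horizontal, log axis) and T2 replicate 2 (vertical, log axis). Dashed lines mark the limit of 10 that chose the regions, and the solid line marks equal values. Most points lie near the limit, and 1200 of the 1851 are higher in replicate 1.

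Most regions lay close to the limit. The lower of the 2 T2 values was under 15 at 1101 regions (59.5%), at least 20 at 320, at least 30 at 61 and at least 40 at 10. There were 295 regions with a lower value of 10 to under 11, and 388 T2-only regions away from gene ends were just outside with 9 to under 10. A region on chromosome 16 (38724348 to 38724744), for instance, fell outside with 13.0 and 9.99 in T2. The closest regions to a gene end on either side of the 1 kb limit had midpoints 1008.5 bp and 997.0 bp away. Values were higher in T2 replicate 1 at 1200 regions and in T2 replicate 2 at 651, and Spearman's rank correlation between the replicates over the 1851 regions was 0.477, as a description of values that were chosen on both axes. The position of the peak was close between the T2 libraries, but joining peaks by overlap limits how far apart their summits can lie. Summits were a median of 22 bp apart, within 50 bp at 1386 regions (74.9%) and over 200 bp apart at 8. For regions of all 4 libraries away from gene ends the median was 24 bp, with 70.1% within 50 bp. Peaks of those regions were wider, and the sets were not matched for width.

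The strongest region lay inside Lipa, the gene of lysosomal acid lipase, which frees cholesterol and fatty acids in lysosomes. It spans 34500737 to 34501077 on chromosome 19 and had −log10 q of 64.8 and 62.5 in T2 replicates 1 and 2, with the nearest T1 peak 14.7 kb away. A region inside Wnt5b, a Wnt ligand, had 56.8 and 47.2 (chromosome 6, 119529626 to 119529999). A region inside Herc6, an interferon-induced ubiquitin ligase, had 56.9 and 46.1 (chromosome 6, 57641690 to 57642156). All 3 had the higher value in T2 replicate 1, and the closest T1 peak to any of them was 6.92 kb away, at Wnt5b. A region 39.6 kb from Slc2a1, the glucose transporter GLUT1, had 45.8 and 47.0. The next, on chromosome 2 at 50887952 to 50888406, had 43.3 and 41.7 and was 242 kb from the nearest protein-coding gene. A region inside Chtf8 and the overlapping Derpc had 41.6 and 44.5. Chtf8 is a subunit of a clamp loader of DNA replication. Regions near Rps10, a ribosomal protein gene, Theg, a gene of male germ cells, and Mgat1, an enzyme of N-glycan synthesis, had lower T2 values of 41.4, 41.1 and 40.5. The tenth lay inside Ror1, a receptor of Wnt5a, with 42.5 and 40.2 at 100230204 to 100230676 on chromosome 4. At these 10 regions the distance to the nearest T1 peak ran from 1.54 kb (Rps10) to 33.9 kb.

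Regions were also chosen on 1 T2 and 1 T1 library, and peaks of the other 2, held-out, libraries were then counted. The regions were joined from all 4 lists, so held-out peaks still helped to set their extent. The libraries are those of the main rule, and the chosen regions are not limited to the strong T2-only ones. The shares therefore describe overlap between the lists and are no separate support for the T2-only regions. Of 6038 regions away from gene ends with −log10 q of at least 10 in T2 replicate 1 and no peak in T1 replicate 1, T2 replicate 2 had a peak at 68.0% (95% Wilson interval 66.8 to 69.1) and T1 replicate 2 at 26.7% (25.6 to 27.8). For the choice of T2 replicate 1 without T1 replicate 2 the shares were 72.1% in the held-out T2 library and 43.6% in the held-out T1 library. For T2 replicate 2 without T1 replicate 1 they were 79.8% and 29.6%. For T2 replicate 2 without T1 replicate 2 they were 82.9% and 47.2%. The held-out T2 library thus had a peak more often than the held-out T1 library in all 4 choices. Regions chosen the other way round, in a T1 library and absent from a T2 library, were found in the held-out T2 library at 29.7% to 44.8% and in the held-out T1 library at 64.2% to 80.4%. In each of these choices the held-out T2 list was longer than the held-out T1 list. A held-out T1 library still had a peak at 1271 to 3421 regions per choice, so 1 T1 list without a peak often stood beside 1 with a peak. Intervals cover counting error only, and 1 held-out library per group gives no test.

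**Figure D2:**
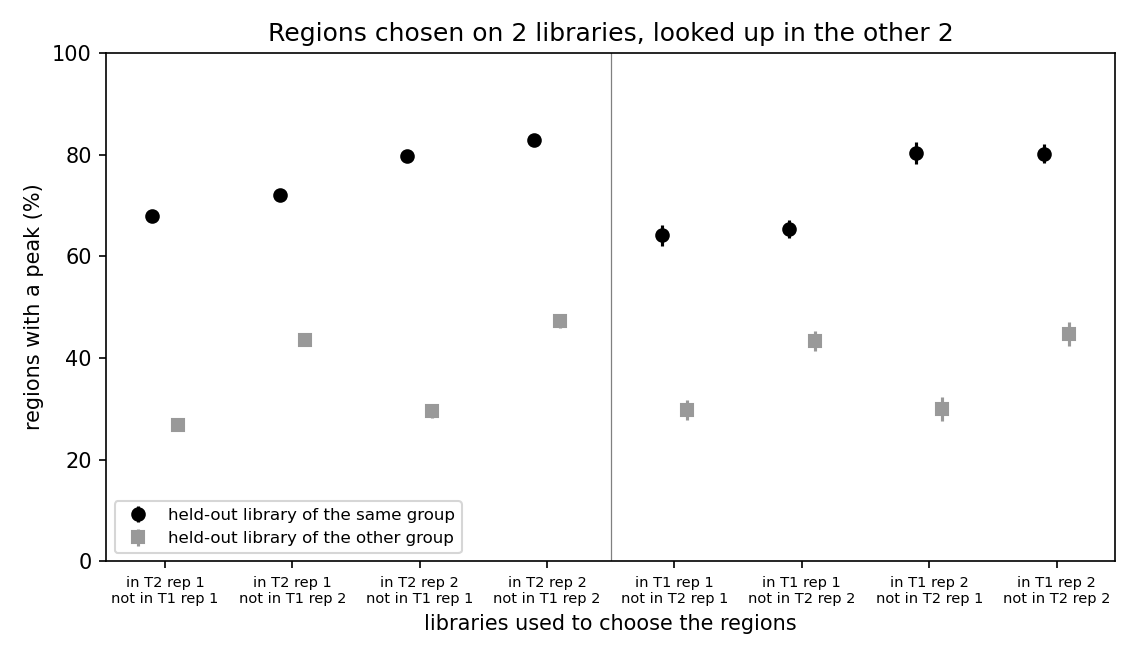
The share of regions (vertical, in %) with a peak in a held-out library, for regions chosen on the pair of libraries named under each position. Circles are the held-out library of the group the regions were chosen in, squares that of the other group, and bars are 95% Wilson intervals. The circles lie between 64.2% and 82.9% and the squares between 26.7% and 47.2%.

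The same rule with the groups exchanged gave 668 T1-only regions, 0.857% of all regions, so T2-only regions were 2.77 times as many. With every list shortened to its 54045 strongest peaks, the length of the shortest, 2010 T2-only and 1032 T1-only regions were counted, and the ratio was 1.95. The ratio was 2.27 with a −log10 q of at least 20 in both libraries (320 and 141 regions). Leaving out 1 library leaves its partner to decide for the group and raised the T2-only count by more than 1.5 times in each case. The count was 4440 with T2 replicate 2 left out and 3057 with T2 replicate 1 left out. It was 4029 with T1 replicate 1 left out and 2845 with T1 replicate 2 left out. The ratio ran from 1.88 without T1 replicate 2 to 4.71 without T2 replicate 2. With 2 libraries against 2 no exact two-sided p can be below 0.333, and none was computed.

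About equal numbers of the T2-only regions lay inside and outside genes. The midpoint was inside a protein-coding gene at 952 of 1851 regions (51.4%, 95% Wilson interval 49.2 to 53.7), outside but within 50 kb of a gene at 629 (34.0%, 31.9 to 36.2), and farther than 50 kb at 270 (14.6%, 13.1 to 16.3). For T1-only regions the shares were 53.4% (49.7 to 57.2), 31% (27.6 to 34.6) and 15.6% (13.0 to 18.5). Among regions of all 4 libraries away from gene ends they were 55.6% (55.0 to 56.1), 32.3% (31.8 to 32.8) and 12.1% (11.8 to 12.5). The intervals of the strong T2-only and T1-only regions overlapped for every position, while the gene-body share of the T2-only regions lay below that of regions of all 4 libraries. A lncRNA gene held 10.9% (9.57 to 12.4) of the T2-only regions, 13.2% (10.8 to 16) of the T1-only ones and 13.3% (12.9 to 13.6) of those in all 4 libraries. Exon and intron positions were not used here.

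**Figure D3:**
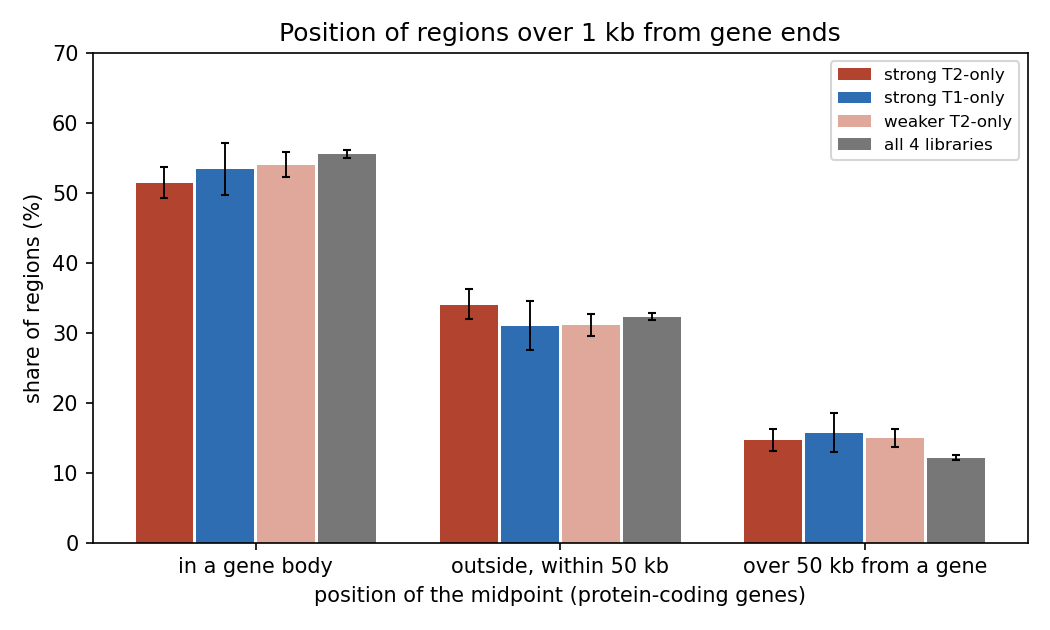
Shares of regions (vertical, in %) by the position of the midpoint, for strong T2-only, strong T1-only, weaker T2-only and all-library regions, all more than 1 kb from gene ends. Bars are shares and lines 95% Wilson intervals. In a gene body lay 51.4% of the strong T2-only regions, 53.4% of the T1-only and 55.6% of those in all 4 libraries.

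By strength, the gene-body share was 53.4% (50.5 to 56.3) among the 1101 regions with a lower T2 value under 15, 49.3% (44.6 to 54.0) among the 430 from 15 to 20, 48.6% (42.6 to 54.7) among the 259 from 20 to 30, and 42.6% (31 to 55.1) among the 61 above 30. The share was lower in each stronger class, with intervals that overlap, and no test of a trend was made. The median distance to the nearest T1 peak was 6831 bp in the weakest class and 4601 bp in the strongest. T1 peaks within 1 kb stood beside 93 of the weakest (8.45%) and 2 of the strongest (3.28%, 0.904 to 11.2).

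Most of the regions lay singly, among open sites of both groups. The nearest T1 peak was a median of 6126 bp away (quartiles 2597 and 13893 bp), within 1 kb at 151 regions (8.16%) and over 100 kb away at 74 (4%). The nearest region found in all 4 libraries was a median of 8660 bp away, against 7711 bp for T1-only regions and 7961 bp between regions of all 4 libraries. The nearest other T2-only region of this kind was a median of 250360 bp away, and 73.5% had none within 100 kb. Only 113 of the 1851 lay in runs with gaps of at most 20 kb, and the longest of these 56 runs had 3 regions. That run was at Lpcat1, an enzyme of phospholipid remodelling, and spanned 25199 bp on chromosome 13. Its regions had −log10 q of 22.9 and 13.5, 16.4 and 12.1, and 19.3 and 10.1 in T2. All 3 were higher in T2 replicate 1, and the first and second had T1 peaks 0.451 and 0.605 kb away, so with no T1 peak allowed within 1 kb Lpcat1 kept 1 region. Close pairs lay near Cpsf2 (within 1023 bp), Fgd2 (1417 bp) and Alox5, the gene of 5-lipoxygenase (3553 bp).

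Every chromosome held such regions. They made up 2.91% of all regions away from gene ends, and between 2.22% (chromosome 14) and 3.85% (chromosome 18, 95% Wilson interval 3.10 to 4.77) of those on single autosomes. The X chromosome had 18 of 1057 (1.70%, 1.08 to 2.68), and the Y chromosome had 1 of 9. On the X chromosome a region inside Bcor, a BCL6 corepressor gene, had −log10 q of 11.4 and 13.6 in T2, with a T1 peak 273 bp away. A region near Was, the Wiskott-Aldrich syndrome gene of blood cells, had 12.4 and 10.1.

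Of 13035 protein-coding genes with a region away from gene ends, 1452 (11.1%) had at least 1 strong T2-only region in the gene body or as the nearest gene within 50 kb. A region given below as held by, at or of a gene can lie in either position. T1-only regions were at 527 (4.04%), and 94 genes had regions of both kinds. A single T2-only region was the rule, at 1332 genes, with 2 at 108 genes, 3 at 9 and 4 at 3. Genes with many regions had more chances to hold one. A T2-only region was at 5.42% of genes with 1 to 3 regions, 16.2% with 4 to 10, 32.4% with 11 to 30 and 61.7% with 31 or more. Counted per region the share was 3.17%, 2.93%, 2.47% and 2.38%. The 12 genes with 3 or more had a median length of 316 kb, against 28.3 kb over all 13035.

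Pde4d, a cAMP phosphodiesterase, held 4 T2-only and 0 T1-only regions among 60, all 4 inside the gene on chromosome 13. The strongest of them (109263927 to 109264285) reached −log10 q of 32.0 and 36.2 in T2. The others had 22.1 and 19.5, 23.2 and 17.1, and 16 and 15.9. Atp2b4, a calcium pump of the plasma membrane, held 4 T2-only and 1 T1-only among 15 regions. The strongest, of 21.8 and 16.6, lay 41.5 kb outside the gene, with a T1 peak 0.368 kb away. Another, of 24.8 and 10.6, lay 24.7 kb outside it. Ttc28, a tetratricopeptide repeat protein, held 4 and 0 among 30, with lower T2 values up to 14.6. At none of these 3 genes were all regions T2-only. Regions of all 4 libraries numbered 36 at Pde4d, 5 at Atp2b4 and 15 at Ttc28.

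Ror1 held 3 T2-only and 1 T1-only among 14 regions. Besides the strongest given above, its regions had −log10 q of 17.9 and 12.8 and of 10.6 and 10.1 in T2, and the last was 59.1 kb from the nearest T1 peak. Carmil1, a regulator of actin capping protein, held 3 and 1 among 13, with 38.3 and 31, 32.8 and 24.7, and 14.9 and 24.8. The first of these had a T1 peak 0.624 kb away. Ablim1, an actin-binding LIM protein, held 3 and 0 among 29, with 25.3 and 21.2 at the strongest. Dgkg, a diacylglycerol kinase, held 3 and 0 among 21, with 17.6 and 28.6 at the strongest. Mast4, a serine/threonine kinase, held 3 and 0 among 25, none with a T1 peak within 12.6 kb. Hhat, the acyltransferase of Hedgehog ligands, held 3 and 0 among 14, and its regions of 15.9 and 10.1 and of 11.6 and 10.1 lay 60.4 and 69.3 kb from the nearest T1 peak. Arhgap26, a GTPase-activating protein, held 3 and 1 among 57, and Trappc9, a subunit of a vesicle-tethering complex, held 3 and 0 among 28. Nub1, a regulator of NEDD8, had 2 T2-only regions among 4, and 0 regions in all 4 libraries. The region of 43.1 and 37.0 lay 11.4 kb outside the gene, and that of 37.6 and 37.4 inside it. Rnf125, a ubiquitin ligase, held 2 among 7, the stronger at 37.1 and 44.9. Dlgap4, a scaffold protein, held 2 among 17, the stronger at 44.2 and 37.0 with the nearest T1 peak 29.9 kb away. At a −log10 q of at least 20 the count was 0 at Atp2b4, Ttc28, Dgkg, Mast4, Lpcat1, Hhat, Arhgap26 and Trappc9 and 1 at Pde4d, so most of these genes were named for regions near the limit.

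**Figure D4:**
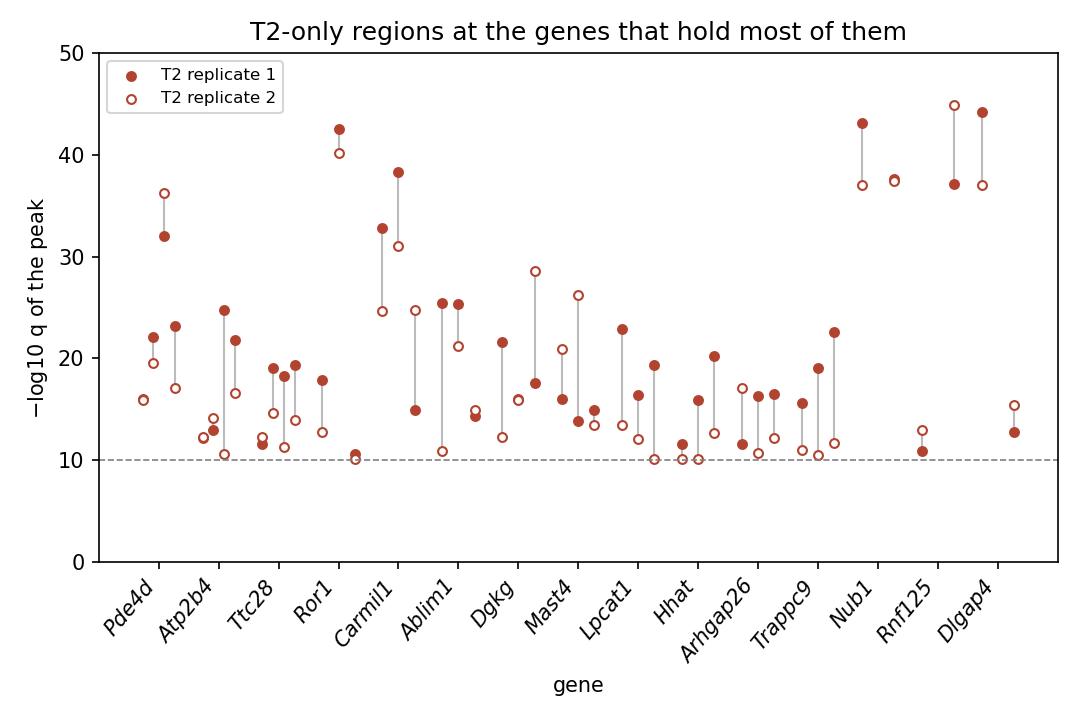
The −log10 q (vertical) in T2 replicate 1 (filled) and T2 replicate 2 (open) of each strong T2-only region at the 15 genes with most of them, ordered by number and then by strength. Each line joins the 2 T2 values of 1 region, and the dashed line is the limit of 10. Only at Pde4d, Ror1, Carmil1, Ablim1, Nub1, Rnf125 and Dlgap4 does a region have both values above 20.

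Bcl11a, the gene the series is about, had no strong T2-only region. Of its 22 regions away from gene ends, 12 were found in all 4 libraries, 4 were T2-only below the strength limit and 0 were T1-only under the mirrored rule. The count of T2-only regions at Bcl11a was 2 at a −log10 q limit of 5 and 1 without T2 replicate 2. Of 22 genes of BCL11A partners and globin regulators with such regions, 2 had 1 strong T2-only region each (9.09%, against 11.1% of all genes). Nfix, a nuclear factor I gene, held a region with −log10 q of 21.5 and 17.4. Mbd2, a methyl-CpG-binding subunit of the NuRD corepressor, had one of 11.5 and 10.7 at 11.5 kb from the gene. Together they are 2 of 187 regions (1.07%, 95% Wilson interval 0.294 to 3.82), against 2.85% of all regions assigned to a gene. T1-only regions of this list numbered 3 (1.6%, against 1.02% of all regions with a gene), 2 at Nfia and 1 at Sox6, so they were more than the T2-only ones.

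Among lists of blood regulators, the interval of the RUNX and ETS list lay below the 2.85% of all regions with a gene, and those of the other lists in this paragraph included it. The 2.85% is not matched for the number of regions per gene. Genes with 11 to 30 regions had a share of 2.47% per region, which the RUNX and ETS interval includes. Genes of RUNX, ETS and other progenitor regulators had 4 T2-only regions among 378 (1.06%, 0.412 to 2.69) and 9 T1-only ones (2.38%, against 1.02% of all). Runx1, a regulator of definitive haematopoiesis, held 2 of the 4 inside the gene, with −log10 q of 33.8 and 21.7 and of 14.6 and 13.3 in T2, beside 2 T1-only regions. Runx3 held a region of 41.8 and 21.3, with a T1 peak 1.21 kb away. Id3, an inhibitor of E proteins, had one of 25.5 and 18.4, beside 2 T1-only regions. The stem cell list had 3 of 257 regions (1.17%, 0.398 to 3.38) and 1 T1-only region. Cdkn1c, the cell cycle inhibitor p57, had a region of 20.1 and 22.4 at 8.56 kb from the gene, and Mecom had one of 10.6 and 12.3. The granulocyte and monocyte list had 2 of 134 (1.49%, 0.41 to 5.28) and 3 T1-only regions (2.24%), with 1 T1-only region each at Mpo, Csf3r and Hdc. The T2-only ones were at Hdc, histidine decarboxylase (18.8 and 16.4), and near Fcgr3, an Fc receptor used to sort myeloid progenitors (11.6 and 12.3). The immediate early list had 1 of 109 (0.917%, 0.162 to 5.01), near Fosb (22.5 and 26.7), and 0 T1-only.

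The intervals of the lineage lists included the share over all regions. The erythroid and megakaryocyte list had 5 T2-only regions among 145 (3.45%, 1.48 to 7.82) and 0 T1-only ones. Ank1, the erythrocyte ankyrin, held a region of 26.2 and 22.2 inside the gene, 12.3 kb from the nearest T1 peak. Zfpm1, the GATA cofactor FOG1, held one of 24.3 and 12.4. Sptb, erythrocyte beta spectrin, held one of 26.3 and 11.9. Pf4, platelet factor 4, had one of 16.6 and 12.2. The lymphoid list had 4 of 192 (2.08%), at Notch2 (15.4 and 15.1), Ikzf1 (16.4 and 14.4), Ebf1 (17.7 and 13.3) and Id2 (14.9 and 13.0), with 0 T1-only. In the mast cell list, Mitf held a region of 15.5 and 20.3 beside the Hdc region named above (2 of 56), with 1 T1-only region in the list. The inflammatory and interferon list had 5 of 154 (3.25%) and 3 T1-only regions, among the T2-only ones Il6ra, an interleukin-6 receptor subunit (22.7 and 20.9), and Socs3, an inhibitor of cytokine signalling (18.7 and 27.3). Stat3, Rel and Socs1 had 1 region each, with lower T2 values of 15.1, 12.3 and 10.3.

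Signalling genes often held a region, and their shares per region were near the share over all regions. Of 30 small GTPase regulators 11 had a T2-only region (36.7%, against 11.1% of all genes), but per region the share was 3.16% (16 of 507, 1.95 to 5.06), and 14 T1-only regions stood beside them. Of 20 genes of cAMP signalling 6 had one (30%), or 9 of 259 regions (3.47%), with 3 T1-only regions. Pde4b held a region of 31.9 and 32.0 inside the gene. Both lists were drawn up with earlier results on genes such as Pde4d and Carmil1 known. All 18 gene lists were chosen with earlier results of these data known, so the counts of none stand as separate evidence. The retinoid list had 3 of 90 and 0 T1-only, with Rarg, a retinoic acid receptor, at 23.6 and 16.3 and Rarb at 21.9 and 11.2, where the nearest T1 peak was 116 kb away. Neuronal channels and receptors had 7 of 212 (3.30%) and 2 T1-only regions. Ano6, a phospholipid scramblase also of platelets, had one of 30.9 and 24.8 at 27.9 kb from the gene. Ryr3, a calcium release channel, had one of 21.9 and 22.2, 49.4 kb from a T1 peak. Adhesion genes had 5 of 196 (2.55%) and 4 T1-only regions (2.04%), with 2 T2-only ones at Itgb2, the leukocyte integrin beta 2 subunit (26.8 and 31.1, and 13.1 and 20), and one at Megf11 (22.5 and 29.2). Cell cycle and survival genes had 4 of 154 and 2 T1-only regions, the T2-only ones including those at Cdkn1a, the inhibitor p21 (28.3 and 28.5), and E2f2 (26.3 and 22.4). Chromatin regulators had 5 of 206 and 2 T1-only regions, with T2-only ones at Arid1b (2) and Hdac4 (22.6 and 17.2).

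The endothelial and stromal list had the highest share, 5 of 73 regions (6.85%, 2.96 to 15.1), with 1 T1-only region, at Cdh5. Of its 17 genes with a region, 5 had a T2-only one (29.4%) and the rest had none. The share was 11.1% over all genes and 16.2% over genes with 4 to 10 regions. Of the list's regions 42.5% were found in all 4 libraries, against 51.3% of all regions with a gene. The endothelial genes Flt1 and Pecam1 had no T2-only region, among 19 and 13 regions. The members were Cdh5, VE-cadherin (25.7 and 22.2), Flt4, a VEGF receptor (20.7 and 24.6), Sox18, an endothelial transcription factor (19.8 and 23.4), Col1a2, a collagen chain (21.9 and 15.9), and Ebf3 (16.2 and 14.5). The ends of Cdh5 itself had no peak in any library, and those of Col1a1 had one in all 4. Of the neural, epithelial and muscle list only Neurod1 had any, 2 among 55 regions of the list, and the list had 1 T1-only region. The region of 34.9 and 26.2 lay 42.8 kb from Neurod1, and that of 39.1 and 19.6 lay 5.3 kb from it. Neurod1 had a peak at a gene end of −log10 q 4.8 and 4.76 in T2 and none in T1. The part of other cells in these results was not tested.

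**Figure D5:**
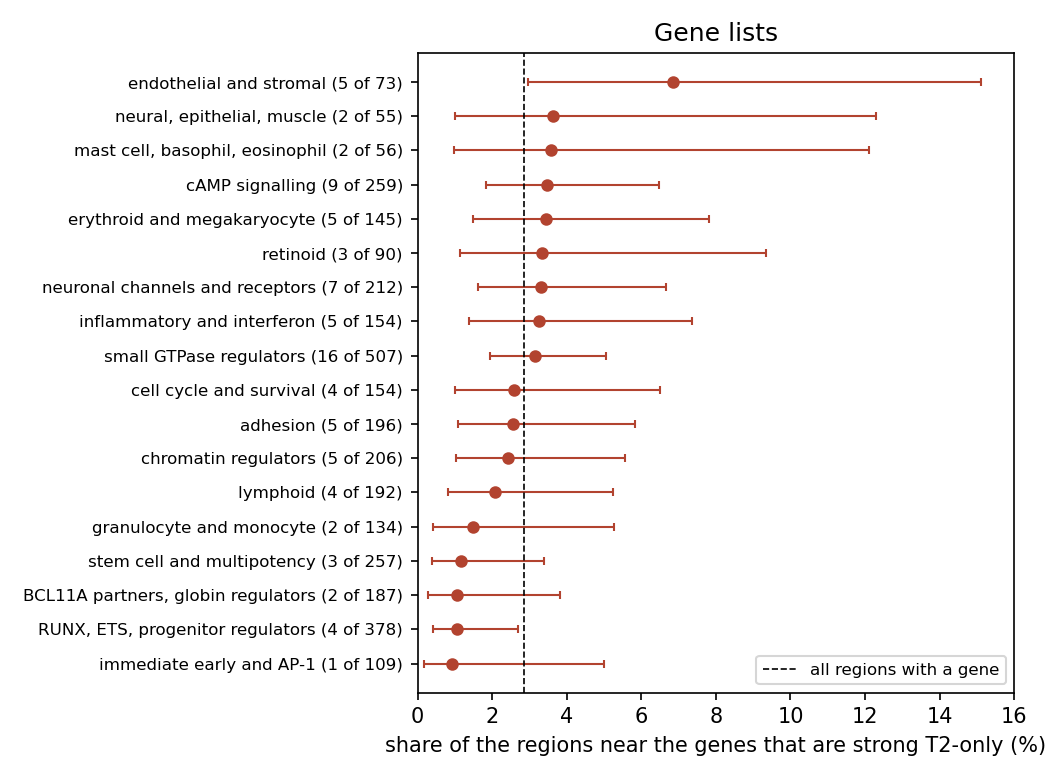
For each gene list, the share of regions near its genes that are strong T2-only (horizontal, in %), with the number of such regions and of all regions in brackets and 95% Wilson intervals as lines. The dashed line is the share over all regions with a gene, 2.85%, not matched for the number of regions per gene. The intervals of 16 of the 18 lists cross it, that of the RUNX and ETS list lies below (up to 2.69%) and that of the endothelial and stromal list above (from 2.96%).

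In each of the 4 counts that left out 1 library and in the count with lists of equal length, the RUNX and ETS, stem cell, granulocyte and monocyte, lymphoid, BCL11A partner and immediate early lists stayed below the share over all regions with a gene. The endothelial and stromal list stayed above it, at 12.9% against 7.23% without T2 replicate 2, 10.3% against 5.12% without T2 replicate 1, 12.7% against 6.50% without T1 replicate 1 and 9.86% against 4.47% without T1 replicate 2. These counts were chosen after seeing the data and share most of their libraries. Leaving out a library drops a condition of the rule, so the regions of the main count largely remain. None of the 46 named genes followed then had fewer. A list that stayed on its side is therefore no separate support. The intervals are not adjusted for 18 lists, no test was made, and no list is called different from the rest.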

How the data were processed

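Peaks of 4 ATAC-seq libraries, 2 titled T2 and 2 titled T1, were used as deposited. The submitters' processing notes name Bowtie2, SAMtools, MACS2 and the build mm10; versions, settings and filters, with any shift of reads for the transposase, were not given. Each list has peak names of a single prefix, which points to calling by library. The deposited fold, as the authors made it, is a ratio of the summit to local background, the deposited −log10 p and −log10 q measure significance against it, and the deposited score is a whole number near 10 times the −log10 q. These are not read counts and rank peaks only within a list, so depth is unknown and no count model was fitted.

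Peaks sharing 1 bp were joined (autosomes, X and Y). Genes came from a RefSeq table on GRCm38.p6 (protein-coding biotype, starts and ends without exons), and promoter sequences from RefSeq's table, which holds no window on chromosome 18. A region's genes are those whose body holds its midpoint, or the nearest within 50 kb. Shares carry 95% Wilson intervals (SciPy 1.17.1), which cover counting error only.

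The members and the 18 gene lists, of whose 408 symbols all matched, were chosen with earlier results of these data known. Genes were named by rule: Bcl11a, the 10 strongest regions, the 15 genes with most regions and up to 2 genes per list, without predicted gene models; any other gene was chosen with its values in view. Some genes that the rule or the lists select are not reported here. The planned motif shares of all members need the mm10 sequence, not used here, and only promoter windows were searched. The code was tested on simulated lists with planted regions. Alternatives were other limits of strength and distance, another overlap, lists of equal length, windows around summits and leaving out each library.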

Additional observations from a re-analysis of the deposited data

How the results depend on the processing

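The number of regions was 4063 at a −log10 q limit of 5 and 320 at a limit of 20, and it ran from 2845 to 4440 when 1 library was left out, since fewer libraries then set the rule. It moved by less than 1.5 times with 500 bp or 5 kb from gene ends (1896 and 1548), a stricter overlap, relative to the shorter peak (1852), no T1 peak within 1 kb (1701), lists of equal length (2010) and windows around summits (1969). The share inside gene bodies was 47.5% with a −log10 q of at least 20 and 50.9% to 53.9% when 1 library was left out, and stayed between 51.0% and 52.4% in the other settings. The median width of the joined regions, 378 bp, was 299 to 408 bp when 1 library was left out and 523 bp with windows around summits, which have a fixed length. The mean share found in the held-out T2 library, 75.7% ± 6.85 (SD over 4 choices that share libraries), was 65.1% at a limit of 5, 87.1% at a limit of 20 and 65.8% with lists of equal length. Of the 46 named genes, 22 had no region left at a −log10 q of at least 20, and 44 had the same count with lists of equal length. No paired analysis was possible because the results are counts and shares of peak lists, with no test fitted across libraries that could take a block. Whether the shared replicate numbers pair the libraries was not examined. The planned motif shares under other limits were not run, for want of a genome sequence. Depth is unknown, so a missing T1 peak is not evidence of closed chromatin.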
